A study of Mus musculus with 18 samples.

Results

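The genes described here are 42 genes of the cell division cycle and of DNA replication, out of 19701 named genes on an Agilent whole-genome mouse array. They were chosen by name: a gene is a member when the array's annotation carries its symbol or an older alias (Cdc2a for Cdk1). The probe with the highest mean level stood for each gene. All 42 were measured, 20 of them by several probes, and every member was well above background in all 3 arrays of each group except Cdkn2a, which was above background in 0 of 3 arrays of crypt-derived organoids.

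The series follows the conversion of mouse fibroblasts into intestinal progenitor cells, with RNA from 6 kinds of culture on 3 arrays each, all labelled as strain C57BL/6. The induced cultures are iFIPC organoids, a mixture of spherical and budding forms that arose from fetal-type intestinal progenitors induced in culture, and iISC organoids, all budding, from induced cells of the intestinal stem cell type. Their native counterparts are spherical and budding organoids from fetal intestinal progenitors (FI organoids) and budding organoids from adult crypts (crypt organoids). Hepatocyte-like cells made from MEFs (iHep cells) and mouse embryonic fibroblasts (MEFs) complete the set, and their titles mark these 6 arrays as taken from earlier work. The labels do not name the factors used for conversion. The titles of the 3 iHep arrays carry different codes that the labels do not explain, and nothing in the labels says whether replicates came from separate cultures or animals, so p-values measure the spread between these arrays, which may be technical.

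A level is the log2 of an array's processed signal minus the 75th percentile of that array, so 0 marks the 75th percentile. Levels of different genes come from different probes and are not set against each other. Its value on the linear scale was 713 to 1476 intensity units over the arrays. Between 56.1 and 68.7% of an array's probes exceeded background clearly. MEF arrays 2 and 3 differed by an SD of 0.119 log2 over 19923 probes, against 0.238 to 0.683 in the other pairs of arrays within a group. Their mean therefore stands for 1 sample, and the tests use 17 samples with n = 2 for the MEFs. Of the 8 general epithelial markers, Epcam, Cdh1 and Esrp1 were not above background in any MEF array, and all 8 were above background in every array of the other 5 groups. All 8 intestinal epithelial markers were above background in every organoid array, and the 10 fibroblast markers summed to 0.12 to 4.27 in the organoids, 58.2 to 170 in iHep cells and 889 to 957 in MEFs (sums of linear levels, where 1 is the 75th percentile). Markers of other cell types also moved with the comparisons against MEFs. All 6 blood cell markers were above background in every MEF array, and 5 of them fell in iFIPC, 5 in iISC, 5 in FI and 4 in crypt organoids and 6 in iHep cells. Their summed level was 53.01 to 158 in the organoids, 0.29 to 1.72 in iHep cells and 67.7 to 106 in MEFs. Of 5 endothelial markers, 3 were above background in every MEF array and their sum was 0.02 to 0.05 in the organoids, 0.03 to 0.04 in iHep cells and 1.15 to 2.19 in MEFs. Pecam1 and Cdh5 were above background in no array of any group. The part of these cells in the differences between MEFs and the other groups was not tested.

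Cells divide by an ordered programme. In G1 the D-type cyclins with Cdk4 or Cdk6, and then the E-type cyclins with Cdk2, release E2F transcription factors, which turn on the genes that license origins and copy DNA. Later, A- and B-type cyclins with Cdk1 and the Aurora and Polo kinases carry the cell through mitosis. Inhibitor proteins oppose the kinases: Cdkn1a and Cdkn1b bind several cyclin-CDK complexes, and Cdkn2a, Cdkn2b and Cdkn2c encode inhibitors of Cdk4 and Cdk6. In the adult intestine, rapid division is confined to crypt base stem cells and the transit-amplifying cells above them.

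Promoters of replication and mitosis genes are known for different elements, so 4 of them are shown, from the RefSeq table for GRCm38.p6 (250 bases before to 50 bases after the annotated start). In Mcm3 (chr1:20820263-20820562, minus strand), a subunit of the replicative helicase, and Cdt1 (chr8:122567765-122568064, plus strand), which loads that helicase, capitals mark the E2F letters TTTCCCGC or TTTGGCGC on either strand. In Plk1 (chr7:122159185-122159484, plus strand), the Polo-like mitotic kinase, and Ccnb2 (chr9:70421505-70421804, minus strand), a B-type cyclin, capitals mark the cell cycle homology region TTTGAA and the CCAAT box.
Mcm3: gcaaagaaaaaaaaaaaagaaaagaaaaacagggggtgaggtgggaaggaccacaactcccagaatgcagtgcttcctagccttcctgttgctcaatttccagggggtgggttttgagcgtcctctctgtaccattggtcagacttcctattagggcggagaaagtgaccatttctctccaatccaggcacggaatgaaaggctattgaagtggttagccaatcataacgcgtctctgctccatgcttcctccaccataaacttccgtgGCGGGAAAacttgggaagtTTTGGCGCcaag
Cdt1: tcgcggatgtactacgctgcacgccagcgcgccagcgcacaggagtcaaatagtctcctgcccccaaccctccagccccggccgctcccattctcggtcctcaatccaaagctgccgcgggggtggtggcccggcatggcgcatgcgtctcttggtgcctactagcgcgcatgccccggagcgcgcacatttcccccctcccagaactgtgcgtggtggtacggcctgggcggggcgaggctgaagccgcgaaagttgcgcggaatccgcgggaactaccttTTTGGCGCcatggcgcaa
Plk1: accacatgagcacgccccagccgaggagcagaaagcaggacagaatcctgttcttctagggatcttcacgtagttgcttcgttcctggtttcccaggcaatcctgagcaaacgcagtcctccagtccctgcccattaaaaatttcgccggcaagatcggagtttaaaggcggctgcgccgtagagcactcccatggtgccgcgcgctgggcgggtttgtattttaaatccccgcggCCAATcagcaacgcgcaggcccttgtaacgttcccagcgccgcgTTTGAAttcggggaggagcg
Ccnb2: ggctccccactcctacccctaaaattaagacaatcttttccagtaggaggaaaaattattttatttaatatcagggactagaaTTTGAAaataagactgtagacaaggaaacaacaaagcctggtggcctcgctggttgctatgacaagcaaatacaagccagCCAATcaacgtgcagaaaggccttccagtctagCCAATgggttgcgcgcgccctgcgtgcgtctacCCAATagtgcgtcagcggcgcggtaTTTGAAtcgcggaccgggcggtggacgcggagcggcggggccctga
Both strands were searched for each set of letters, and no motif overlaps another in these 4 windows. Of the 42 members, 34 had a promoter in the table, with 39 windows between them. One of the E2F forms occurred in 6 of 9 windows of the licensing and fork genes (66.7%), in 0 of 11 windows of the G2 and mitosis genes and in 1.56% of all 32851 windows. TTTGAA occurred in 8 of 11 windows of the G2 and mitosis genes (72.7%), in 11.1% of the licensing windows and in 17.9% of all windows. CCAAT occurred in 10 of 11 windows of the G2 and mitosis genes (90.9%), in 7 of 9 licensing windows (77.8%) and in 37.4% of all windows. A match is a run of letters in the window and was not tested as a binding site.

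Against MEFs, the organoids had higher levels of most replication genes and of part of the mitosis genes, and lower levels of the G1 cyclins Ccnd3 and Ccne1. A gene was called when its Benjamini-Hochberg adjusted p over all genes tested was under 0.05 in limma and its log2 change was at least 1. In iFIPC organoids 15 members rose and 2 fell, while 20.2% of all genes tested rose and 23.3% fell. In iISC organoids 16 rose and 5 fell (23.1% and 25.5% of all genes). In FI organoids 22 rose and 6 fell (23.3% and 23.8%), and in crypt organoids 23 rose and 6 fell (24.2% and 26.1%). The median change of the 42 members was 0.72 in iFIPC, 0.66 in iISC, 1.02 in FI and 1.04 in crypt organoids, and the median over all genes lay between -0.03 and 0.03 in these comparisons. All 4 comparisons share the MEF samples.

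For 25 of the 42 members, every one of the 12 organoid arrays lay above every one of the 6 MEF and iHep arrays, against 17.7% of 15550 genes. The 25 comprise all 10 licensing and fork genes, 11 of 14 G2 and mitosis genes, 2 of 10 G1 and S regulators, 1 of 3 nucleotide supply genes and 1 of 5 CDK inhibitors. The MEF and iHep arrays were read on another scanner model, with another version of the extraction software, than the organoid arrays, so the array set and the difference between these cells and organoids cannot be told apart. On the same scale, 6 spike-in controls were brighter on the MEF and iHep arrays by 0.52 to 1.20 log2 (median 0.93), and their bearing on the members was not tested. In these bulk samples, a larger share of dividing cells and more RNA per dividing cell cannot be told apart either.

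**Figure D1:**
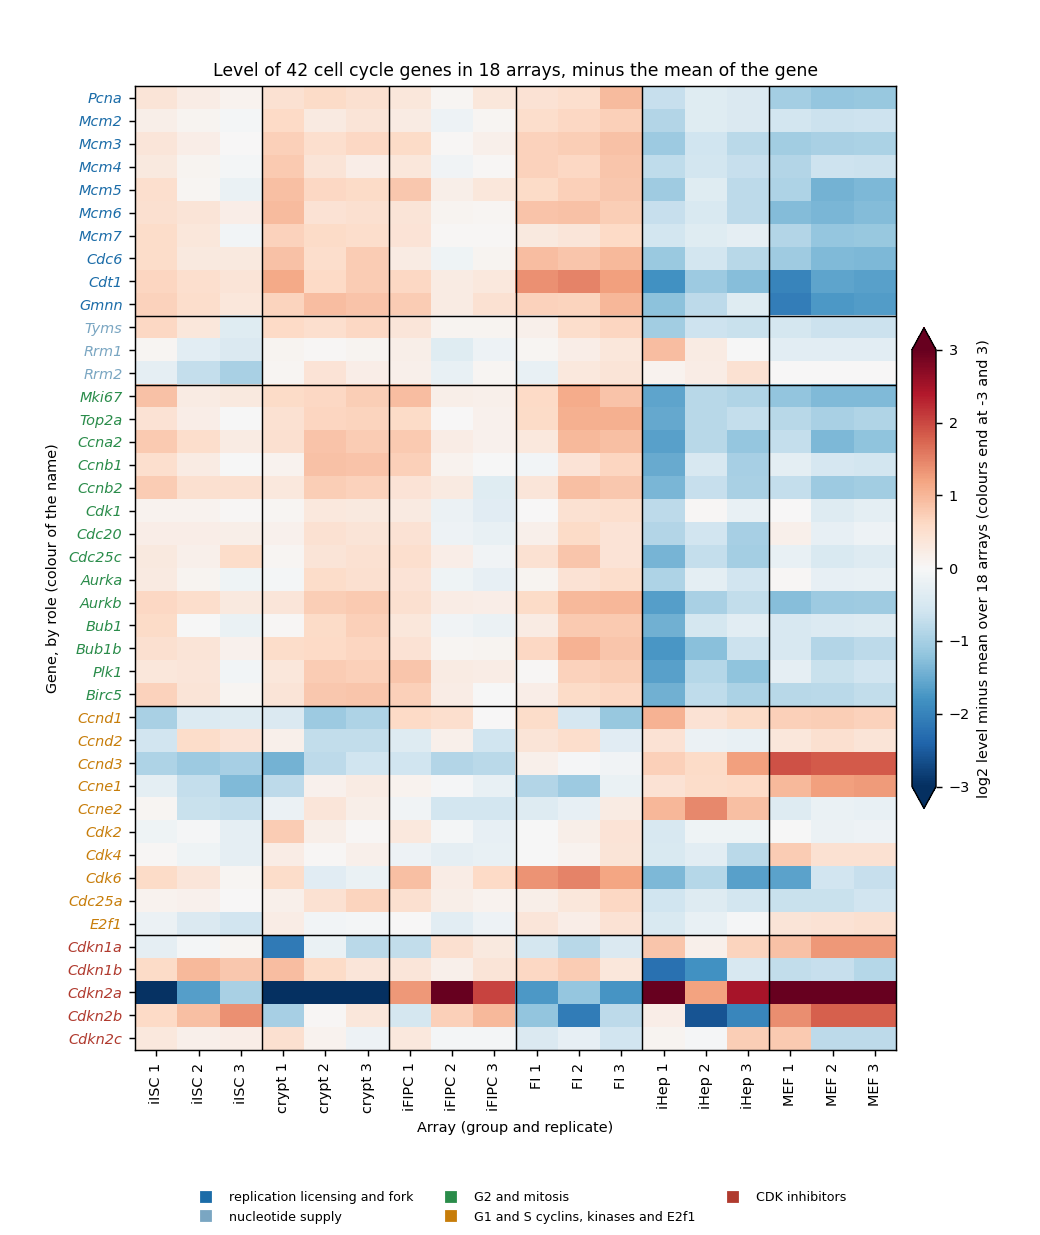
Level of each of the 42 genes in each of the 18 arrays, as log2 above (red) or below (blue) the mean of the gene over the arrays. Columns are arrays by group, rows are genes by role. The licensing genes are red in all 12 organoid arrays or close to 0, and blue in all 6 MEF and iHep arrays, while Ccnd3 is red in all 6 MEF and iHep arrays and Cdkn2a is red there and in the iFIPC arrays.

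The licensing and fork genes were the most uniform set. They are the helicase subunits Mcm2 to Mcm7, the loaders Cdc6 and Cdt1, the Cdt1 inhibitor geminin (Gmnn) and the sliding clamp Pcna. Of the 10, 8 rose in iFIPC, 8 in iISC, 10 in FI and 10 in crypt organoids against MEFs, and the 2 not called in the induced organoids were Mcm2 and Mcm4 in both (0.65 to 0.86 log2). The call of Mcm2 in crypt organoids was lost without MEF arrays 2 and 3 (0.98) or crypt array 1 (0.92), both under the minimum of 1. With quantile normalization Mcm2 changed by 0.86 and Mcm4 by 0.96 in crypt organoids, and Mcm3 by 0.998 in iISC organoids. These 3 calls were then lost. Cdt1 stood at 4.91, 4.55 and 4.62 in iFIPC organoids, 4.95, 4.81 and 4.70 in iISC organoids, 5.68, 5.80 and 5.54 in FI organoids and 5.44, 4.91 and 5.05 in crypt organoids, against 2.48, 3.22 and 3.02 in iHep cells and 2.32, 2.73 and 2.68 in MEFs. The lowest organoid array was above the highest iHep or MEF array by more than 1 log2 unit. The log2 change of Cdt1 against MEFs (± SE, as for every change given with an error) was 2.18 ± 0.22 in iFIPC, 2.31 ± 0.22 in iISC, 3.16 ± 0.22 in FI and 2.62 ± 0.22 in crypt organoids, with adjusted p in limma of 2.19e-06, 1.01e-06, 5.93e-08 and 2.67e-07 in that order.

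Geminin, which keeps an origin from being licensed again in the same cycle, changed by a like amount. Gmnn stood at 5.03, 4.50 and 4.73 in iFIPC, 4.96, 4.80 and 4.61 in iISC, 4.96, 4.92 and 5.26 in FI and 4.94, 5.18 and 5.12 in crypt organoids, against 3.04, 3.49 and 3.90 in iHep cells and 2.18, 2.55 and 2.60 in MEFs. The organoid arrays did not overlap with the other 6, and the iHep arrays lay above the MEF arrays. Its change against MEFs was 2.38 ± 0.24 in iFIPC, 2.41 ± 0.24 in iISC, 2.67 ± 0.24 in FI and 2.70 ± 0.24 in crypt organoids (adjusted p between 3.51e-07 and 1.68e-06). Mcm3, whose promoter is shown above, stood at 4.17, 3.62 and 3.75 in iFIPC, 3.95, 3.78 and 3.60 in iISC, 4.29, 4.33 and 4.46 in FI and 4.32, 4.10 and 4.21 in crypt organoids, against 2.50, 2.99 and 2.78 in iHep cells and 2.56, 2.63 and 2.63 in MEFs. Here too the organoid arrays did not overlap with the rest, and the changes against MEFs lay between 1.18 in iISC and 1.77 in FI organoids.

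Among the other helicase subunits, Mcm6 changed against MEFs by 1.50 in iFIPC, 1.67 in iISC, 2.14 in FI and 1.93 in crypt organoids. Mcm5 and Mcm7 changed by 1.18 to 1.85 over the 4 comparisons. The loader Cdc6 changed by 1.27 in iFIPC, 1.57 in iISC, 2.12 in FI and 1.93 in crypt organoids. Pcna, the clamp that holds the polymerases on DNA, changed by 1.33 to 1.72. All of these were called in all 4 comparisons with MEFs, which share their MEF samples.

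Nucleotide supply did not follow the licensing genes throughout. Tyms, thymidylate synthase, rose in FI organoids (1.03 ± 0.24, adjusted p = 0.00225) and in crypt organoids (1.16 ± 0.24, adjusted p = 0.000856) against MEFs. It changed by 0.76 in iFIPC and 0.79 in iISC organoids, under the minimum of 1. The FI call was lost without MEF arrays 2 and 3 or FI array 2 or 3 (0.92 to 0.99). With quantile normalization Tyms changed by 0.94 in FI and 0.95 in crypt organoids, and both calls were lost. The ribonucleotide reductase subunits Rrm1 and Rrm2 were not called in any of the 4 comparisons, with changes of 0.09 to 0.51 for Rrm1 and -0.65 to 0.21 for Rrm2. Rrm2, the regulated subunit, stood at 1.26, 0.88 and 1.16 in iFIPC, 0.84, 0.39 and 0.14 in iISC, 0.89, 1.43 and 1.49 in FI and 1.16, 1.51 and 1.31 in crypt organoids, against 1.22, 1.33 and 1.55 in iHep cells and 1.12, 1.11 and 1.11 in MEFs. The 3 iISC arrays were the lowest of all 18, and the other groups overlapped.

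The G2 and mitosis genes split into a part that rose and a part that was not called. Against MEFs 5 of 14 rose in iFIPC, 6 in iISC, 8 in FI and 9 in crypt organoids, and none fell. Mki67, the proliferation antigen that coats mitotic chromosomes, stood at 4.96, 4.19 and 4.19 in iFIPC, 4.91, 4.28 and 4.33 in iISC, 4.63, 5.14 and 4.89 in FI and 4.59, 4.65 and 4.76 in crypt organoids, against 2.44, 3.19 and 3.11 in iHep cells and 2.84, 2.69 and 2.71 in MEFs. The lowest organoid array lay about 1 log2 unit above the highest iHep array. Mki67 changed by 1.67 ± 0.28 in iFIPC, 1.73 ± 0.28 in iISC, 2.11 ± 0.28 in FI and 1.89 ± 0.28 in crypt organoids (adjusted p in limma between 2.29e-05 and 0.000194).

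Aurkb, the Aurora kinase of the chromosomal passenger complex, changed by 1.48 in iFIPC, 1.66 in iISC, 2.03 in FI and 1.81 in crypt organoids against MEFs. Its partner survivin (Birc5), the A-type cyclin Ccna2 and topoisomerase II alpha (Top2a) were also called in all 4, at 1.10 to 1.80 for Top2a and 1.37 to 1.72 for Ccna2. With the mean of its probes, Top2a changed by 0.72 in iFIPC (adjusted p = 0.0861) and 0.83 in iISC organoids. That mean includes a probe above background on only 1 of 18 arrays, and the other dimmer probe changed by 0.71 and 0.60. The calls were also lost without iFIPC array 1 (0.96) and without iISC array 1 (0.98). Without iFIPC array 1, Birc5 changed by 0.92 in iFIPC organoids, and with quantile normalization by 0.97 in iISC organoids, both under the minimum of 1. Not called in any of the 4 were Cdk1, the mitotic kinase itself (0.09 to 0.49), Aurka, the Aurora kinase of the spindle poles (0.12 to 0.45), Cdc20, which activates the anaphase-promoting complex (0.05 to 0.41), and the phosphatase Cdc25c (0.51 to 0.88). The B-type cyclin Ccnb1 was called in crypt organoids alone (1.03). That call was lost with quantile normalization (0.93), with the mean of its probes (0.81) and without crypt array 2 or 3 (0.90 and 0.91). The spindle checkpoint genes Bub1 and Bub1b were not called in the induced organoids, and both were called in FI organoids (1.04 and 1.49). In crypt organoids Bub1b was called (1.26) and Bub1 was not (0.88). The Bub1 call was lost with the mean of its probes (0.57), without either MEF sample (adjusted p of 0.0704 and 0.0523) and without FI array 2 or 3 (both 0.95).

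Ccnb2 and Plk1, whose promoters are shown above, differed in this respect. Ccnb2 stood at 4.30, 4.16 and 3.52 in iFIPC, 4.66, 4.37 and 4.36 in iISC, 4.24, 4.78 and 4.70 in FI and 4.21, 4.63 and 4.58 in crypt organoids, against 2.51, 3.20 and 2.91 in iHep cells and 3.18, 2.80 and 2.83 in MEFs. It rose in iISC (1.47 ± 0.27), FI (1.58 ± 0.27) and crypt organoids (1.48 ± 0.27), and the change in iFIPC organoids, 1.00 ± 0.27, lay just under the minimum of 1 (adjusted p = 0.00514). Plk1 stood at 4.64, 4.06 and 4.02 in iFIPC, 4.14, 4.17 and 3.71 in iISC, 3.83, 4.50 and 4.54 in FI and 4.15, 4.57 and 4.53 in crypt organoids, against 2.17, 2.94 and 2.58 in iHep cells and 3.54, 3.13 and 3.22 in MEFs. Its organoid arrays did not overlap with the MEF or iHep arrays, and the iHep arrays lay below the MEF arrays. Against MEFs it was called in crypt organoids (1.06 ± 0.29, adjusted p = 0.00505), a call lost with quantile normalization (0.82), without MEF arrays 2 and 3 (0.88, adjusted p = 0.0549) and without crypt array 2 (0.98). It was not called elsewhere, with 0.88, 0.65 and 0.93 in iFIPC, iISC and FI organoids. Differences between these comparisons were not tested here.

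The 10 G1 and S regulators moved in both directions. Ccnd3, a D-type cyclin, fell in every organoid group against MEFs. It stood at 1.34, 1.06 and 1.11 in iFIPC, 1.01, 0.85 and 0.94 in iISC, 2.08, 1.91 and 1.82 in FI and 0.51, 1.15 and 1.33 in crypt organoids, against 2.65, 2.50 and 3.15 in iHep cells and 3.84, 3.76 and 3.76 in MEFs. The groups formed 3 tiers that did not overlap, with the organoids at the bottom, iHep cells between and MEFs at the top. Ccnd3 changed by -2.63 ± 0.23 in iFIPC, -2.87 ± 0.23 in iISC, -1.87 ± 0.23 in FI and -2.81 ± 0.23 in crypt organoids (adjusted p in limma between 1.75e-07 and 1.04e-05).

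Ccne1, an E-type cyclin that activates Cdk2, stood at 2.57, 2.43 and 2.24 in iFIPC, 2.17, 1.74 and 1.15 in iISC, 1.60, 1.37 and 2.27 in FI and 1.68, 2.59 and 2.71 in crypt organoids, against 2.89, 3.02 and 3.07 in iHep cells and 3.45, 3.71 and 3.74 in MEFs. All 12 organoid arrays lay below the 6 others. Its change against MEFs was -1.17 ± 0.34 in iFIPC, -1.90 ± 0.34 in iISC, -1.84 ± 0.34 in FI and -1.26 ± 0.34 in crypt organoids, called in each. Its 2 probes gave changes of the same direction and like size. Without MEF arrays 2 and 3 the change in iFIPC organoids was -1.03 (adjusted p = 0.0679), and without crypt array 1 that in crypt organoids was -0.93, under the minimum of 1.

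Ccnd1, the D-type cyclin that growth factors and Wnt signalling induce, stood at 3.69, 3.60 and 3.11 in iFIPC, 2.12, 2.69 and 2.70 in iISC, 3.64, 2.60 and 1.95 in FI and 2.67, 2.00 and 2.17 in crypt organoids, against 4.13, 3.54 and 3.68 in iHep cells and 3.81, 3.85 and 3.79 in MEFs. The FI arrays spread over more than 1 log2 unit. Ccnd1 fell in iISC (-1.31 ± 0.40, adjusted p = 0.00967), FI (-1.08 ± 0.40, adjusted p = 0.0272) and crypt organoids (-1.54 ± 0.40, adjusted p = 0.00358). The call in FI organoids was lost in 4 of the fits that left out an array, among them those without FI array 3 (-0.69, adjusted p = 0.107) and without MEF array 1 (-1.08, adjusted p = 0.0935). Ccnd2, the remaining D-type cyclin, was not called against MEFs in any group (-0.83 to -0.20).

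The kinases that pair with D-type cyclins moved in opposite directions. Cdk6 stood at 4.50, 3.84 and 4.19 in iFIPC, 4.18, 3.96 and 3.66 in iISC, 4.95, 5.10 and 4.78 in FI and 4.15, 3.26 and 3.41 in crypt organoids, against 2.25, 2.74 and 1.98 in iHep cells and 1.99, 3.02 and 2.92 in MEFs. All 12 organoid arrays were above the other 6, FI organoids were the highest group, and MEF array 1 lay about 1 log2 unit below MEF arrays 2 and 3. Cdk6 rose by 1.70 ± 0.34 in iFIPC, 1.46 ± 0.34 in iISC, 2.46 ± 0.34 in FI and 1.13 ± 0.34 in crypt organoids, and its 3 probes gave rises in all 4. The call in crypt organoids was lost with quantile normalization (0.94) and without MEF array 1 (0.64). Without MEF array 1 the change in iISC organoids also fell under the minimum of 1 (0.97).

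Cdk4 was lower than in MEFs in every organoid group, by an amount under the minimum of 1. It stood at 3.08, 2.95 and 2.98 in iFIPC, 3.25, 3.08 and 2.95 in iISC, 3.22, 3.32 and 3.61 in FI and 3.44, 3.24 and 3.36 in crypt organoids, against 2.77, 2.89 and 2.42 in iHep cells and 3.99, 3.68 and 3.68 in MEFs. No organoid or iHep array reached the lowest MEF array. The changes were -0.83, -0.74, -0.45 and -0.48 in iFIPC, iISC, FI and crypt organoids, with adjusted p between 0.000739 and 0.0292. Of the remaining G1 and S regulators, the phosphatase Cdc25a rose in FI (1.02) and crypt organoids (1.06). Both calls were lost with the mean of its probes (0.62 and 0.73) and without 1 array, among them FI array 3 (0.89) and crypt array 3 (0.94). Cdk2, Ccne2 and E2f1 were not called against MEFs in any organoid group. E2f1, a member of the E2F family, changed by -0.83 to -0.09 while most licensing genes rose.

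**Figure D2:**
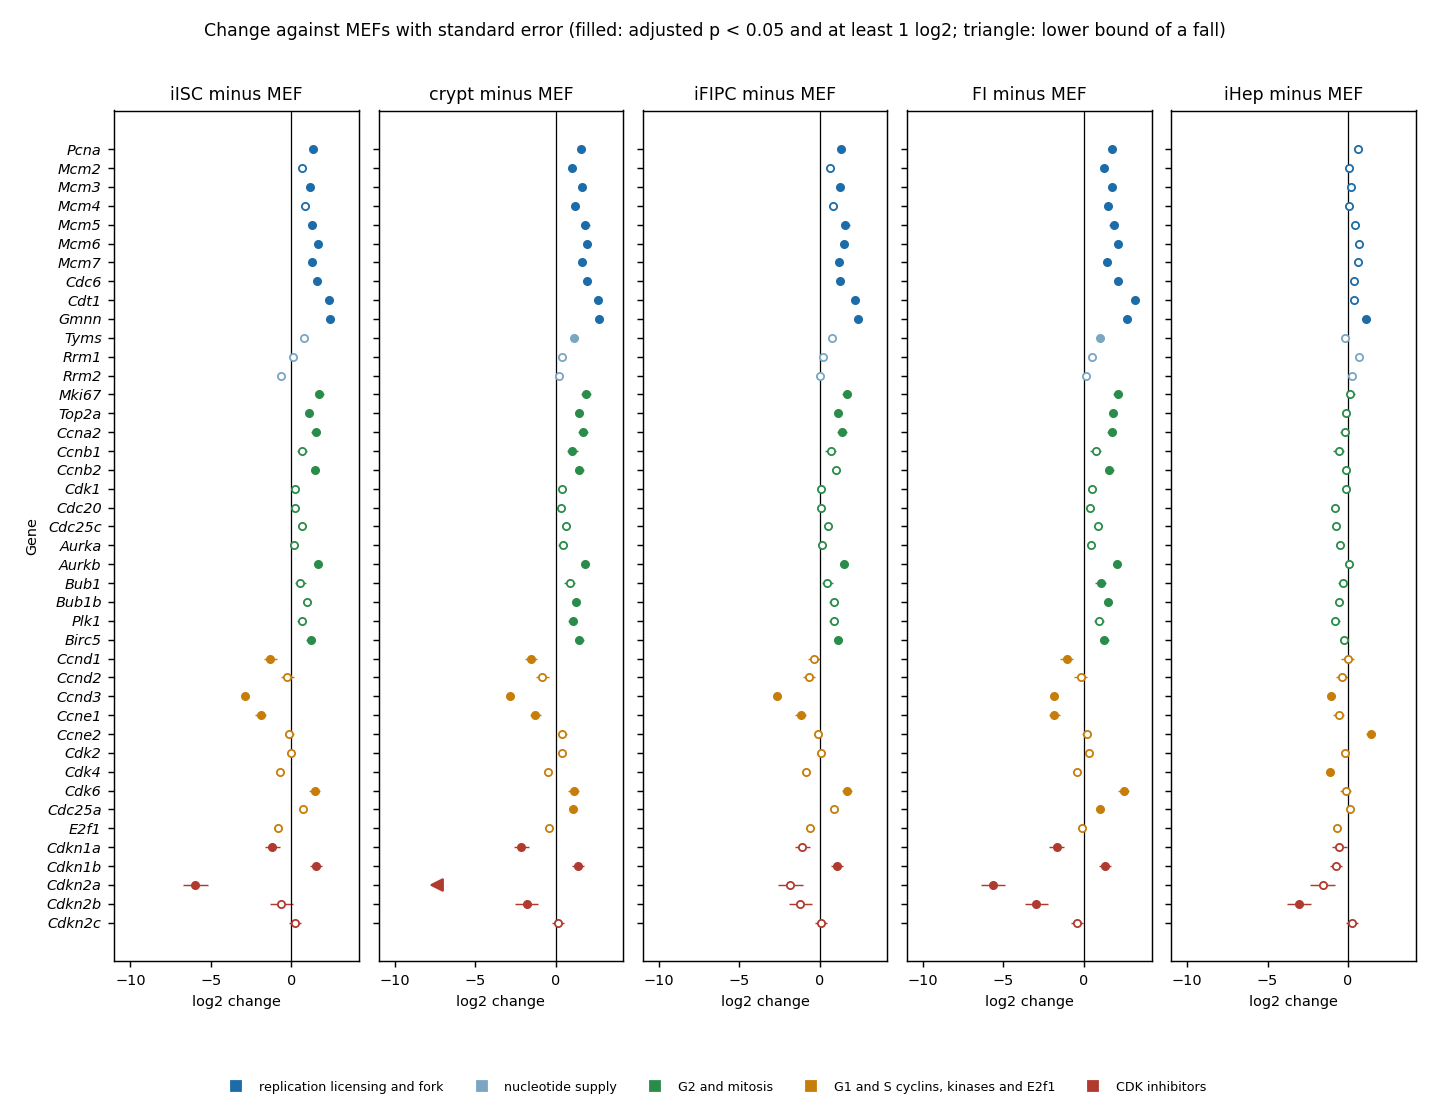
Log2 change of each of the 42 genes against MEFs, in 5 panels for iISC, crypt, iFIPC and FI organoids and iHep cells. Points are limma estimates with their standard error, filled where called, and a triangle is a lower bound. Licensing genes lie to the right of 0 in the 4 organoid panels, with Cdt1 and Gmnn farthest right, and Ccnd3, Ccne1 and Cdkn2a lie to the left.

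Of the 5 CDK inhibitors, none fell in iFIPC, 2 fell in iISC, 3 in FI and 3 in crypt organoids against MEFs, and Cdkn1b rose in each. Cdkn2a encodes both an inhibitor of Cdk4 and Cdk6 and the p53 activator Arf from different first exons, and is known as a barrier to reprogramming. The array annotation lists its only probe (chr4:88920545-88920604, mm9) under a single transcript. Whether the probe tells these transcripts apart was not tested. Cdkn2a stood at -2.05, 0.16 and -1.32 in iFIPC, -6.31, -5.01 and -4.33 in iISC, -5.08, -4.50 and -5.13 in FI and -8.91, -8.50 and -8.73 in crypt organoids, against 0.54, -2.14 and -0.88 in iHep cells and 1.18, 0.66 and 0.01 in MEFs. The iFIPC arrays lay within the range of the iHep arrays, the iISC and FI arrays overlapped, and the crypt arrays were at background.

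Cdkn2a fell by 5.98 log2 in iISC organoids (SE 0.76, adjusted p = 1.37e-05) and fell by 5.66 in FI organoids (SE 0.76, adjusted p = 2.38e-05) against MEFs. In crypt organoids, where no array was above background, it was at least 167-fold lower (adjusted p = 1.65e-07). For such a bound, each dim array takes the lowest level that any clearly detected probe had on it, or its own where that is higher. In iFIPC organoids the change was -1.83 ± 0.76 with adjusted p = 0.0502, on the other side of the threshold. Relative to MEFs the mean level of Cdkn2a was 28.1% in iFIPC, 1.59% in iISC and 1.97% in FI organoids. Among the 10 fibroblast markers in iFIPC organoids, 7 were above background in all 3 arrays and the highest relative to MEFs was Twist1, at 3.62% of the MEF level, with the other 9 at 0.37% or less. The summed fibroblast level in iFIPC arrays 1, 2 and 3 was 1.82, 4.27 and 0.58. Array 2 had the highest sum and the highest Cdkn2a, and array 1 had a higher sum than array 3 and a lower Cdkn2a. The part of remaining fibroblasts in the Cdkn2a level of iFIPC organoids was not tested.

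Cdkn2b, the neighbouring inhibitor gene, stood at 2.71, 3.96 and 4.22 in iFIPC, 3.85, 4.14 and 4.62 in iISC, 2.07, 1.14 and 2.45 in FI and 2.24, 3.29 and 3.59 in crypt organoids, against 3.45, 0.65 and 1.28 in iHep cells and 4.64, 5.04 and 5.04 in MEFs. By group mean the iISC organoids came closest to the MEFs and the FI organoids were the lowest organoid group, with arrays of neighbouring groups overlapping, while the iHep arrays spread over more than 2 log2 units. It fell in FI organoids (-2.96 ± 0.72, adjusted p = 0.00267) and in crypt organoids (-1.80 ± 0.72, adjusted p = 0.039) against MEFs. The crypt call was lost in 4 of the fits that left out an array, for example without crypt array 1 (-1.40, adjusted p = 0.125).

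Cdkn1a, the inhibitor that p53 induces, stood at 2.11, 3.32 and 3.15 in iFIPC, 2.58, 2.78 and 2.91 in iISC, 2.33, 2.03 and 2.42 in FI and 0.73, 2.66 and 2.04 in crypt organoids, against 3.67, 3.01 and 3.51 in iHep cells and 3.73, 4.15 and 4.16 in MEFs. Every organoid array was below every MEF array, and crypt array 1 lay more than 1 log2 unit below the other crypt arrays. Cdkn1a fell in iISC (-1.19 ± 0.47, adjusted p = 0.0371), FI (-1.68 ± 0.47, adjusted p = 0.00621) and crypt organoids (-2.13 ± 0.47, adjusted p = 0.00116). The iISC call was lost in each of the 5 fits that left out an iISC or MEF sample (-0.97 to -1.40, adjusted p of 0.0527 to 0.183), and the FI call without MEF arrays 2 and 3 (-1.47, adjusted p = 0.0544). Of 20 other genes known as p53 targets, 13 fell and 1 (Perp) rose in iFIPC organoids, 13 fell and 2 rose in iISC organoids, 13 fell and 1 rose in FI organoids, and 15 fell and 2 rose in crypt organoids. Phlda3 and the kinase Plk2 were among the largest falls in crypt organoids (-4.00 and -3.64), and Mdm2, the ligase that degrades p53, fell by 2.18 in iFIPC organoids. The median change of the 20 was -1.47, -1.64, -1.36 and -1.88 in iFIPC, iISC, FI and crypt organoids.

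Cdkn1b ran against the other inhibitors. It stood at 1.06, 0.85 and 1.11 in iFIPC, 1.28, 1.67 and 1.51 in iISC, 1.34, 1.48 and 1.04 in FI and 1.63, 1.29 and 1.07 in crypt organoids, against -1.53, -1.11 and 0.22 in iHep cells and -0.03, 0.02 and -0.14 in MEFs. All organoid arrays were above the rest, and its brightest probe rose by 1.05 to 1.53 against MEFs (adjusted p between 0.00262 and 0.0255). Its 3 probes disagreed, and with their mean the changes were 0.23 to 0.56 and no comparison with MEFs called it. In iFIPC organoids the call was also lost without either MEF sample (1.03 and 1.07, adjusted p of 0.0947 and 0.0875). Cdkn2c was not called against MEFs in any group (-0.42 to 0.22), and MEF array 1 stood 1.57 above the other MEF arrays.

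**Figure D3:**
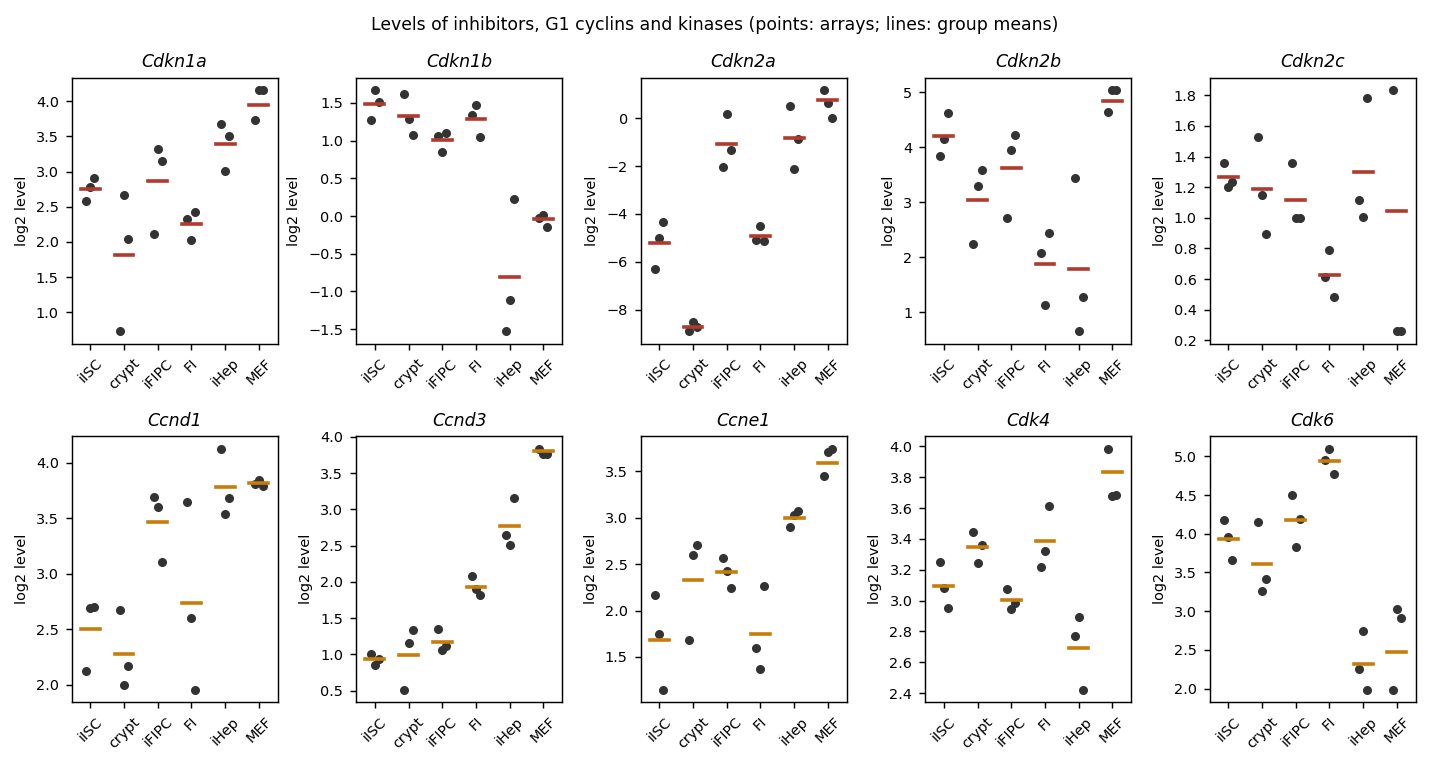
Levels of 5 CDK inhibitors, 3 G1 cyclins and the kinases Cdk4 and Cdk6 in each array (points, replicates 1 to 3 from left to right) with group means (lines), as log2 relative to the 75th percentile of the array. Cdkn2a in iFIPC organoids lies within the range of the iHep arrays, below the MEF mean, and is at background in crypt organoids, and Ccnd3 and Ccne1 are highest in MEFs.

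Genes of the same processes outside the 42 were counted against MEFs in the same way. Of 49 other replication genes, 20 rose in iFIPC, 23 in iISC, 36 in FI and 33 in crypt organoids, and none fell. Among the largest rises in crypt organoids were Ung, a uracil glycosylase (2.79), and the primase subunit Prim1 (2.35). Of 63 other mitosis genes measured, 21 rose and 2 fell in iFIPC, 24 rose and 2 fell in iISC, 37 rose and none fell in FI, and 30 rose and 2 fell in crypt organoids. Those that fell in iFIPC and crypt organoids were Anln, an actin-binding protein of cytokinesis, and Pimreg. Among 34 other G1 and checkpoint regulators, E2f2, another activating E2F factor, had the largest rise, by 4.10 in iFIPC and 5.14 in crypt organoids, and the inhibitor gene Cdkn1c had the largest fall (-3.48 and -4.95).

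iHep cells and MEFs share the scanner model and extraction software, and there the members moved little. In iHep cells 2 members rose and 3 fell against MEFs, while 11.9% of all genes rose and 15.9% fell, and the 5 members called are 11.9% of the 42, against 27.8% of all genes. The risers were Ccne2, the other E-type cyclin, and Gmnn, and Ccnd3, Cdk4 and Cdkn2b fell. Ccne2 stood at -1.36, -0.91 and -1.46 in iHep cells, against -2.73, -2.56 and -2.57 in MEFs, with no overlap (1.40 ± 0.27, adjusted p = 0.00114). Gmnn rose by 1.10 ± 0.23 (adjusted p = 0.00208), and Cdk4 fell by 1.14 (SE 0.17, adjusted p = 0.00012). Ccnd3 changed by -1.03 ± 0.23 (adjusted p = 0.00256) and Cdkn2b by -3.05 ± 0.72 (adjusted p = 0.00399).

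With no minimum on the size, 6 members passed as higher and 7 as lower in iHep cells, against 19.1% and 25.8% of all genes. Beside those named, the higher ones were Pcna, Mcm6, Mcm7 and Rrm1 (0.59 to 0.70), and the lower ones Cdc20, Cdc25c, Plk1 and E2f1 (-0.80 to -0.66). The median change was 0.41 over the 10 licensing genes and -0.28 over the 14 G2 and mitosis genes, beside -0.11 over all genes. Within the slide that holds MEF array 1 and the 3 iHep arrays, limma called none of the 42 and 5 had an unadjusted p under 0.05, with changes of 1.49 for Ccne2 and -1.29 for Cdk4 and adjusted p of 0.0693 and 0.0763. Ccnd3 was under the minimum of 1 in 3 of the fits that left out an array (-0.90 to -0.99), Gmnn without MEF array 1 (0.90) or iHep array 3 (0.89), and Cdk4 without MEF array 1 (-0.99). With only the 2 groups in the fit, the adjusted p was 0.0554 for Gmnn and 0.0558 for Cdkn2b. iHep array 1 was the lowest of its group for 29 of the 42 members.

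Set against iHep cells in place of MEFs, the induced organoids had more of the G2 and mitosis genes called than of the licensing genes. In iFIPC organoids 17 members rose and 2 fell (17.5% and 16.6% of all genes), and in iISC organoids 18 rose and 5 fell (20.5% and 19.3%). Of the 14 G2 and mitosis genes, 10 rose in iFIPC and 11 in iISC organoids, while 4 of 10 licensing genes rose in each. These counts depend on the minimum of 1 and on the choice of probe. With the mean of all probes, calls in iFIPC and iISC organoids were lost for Top2a (0.45 and 0.56) and Ccnb1 (0.75 in each). The same held for Mcm3 (0.93 and 0.79) and Cdkn1b (0.34 and 0.52), and in iISC organoids for Cdc6 (0.95). With quantile normalization calls were lost for Mcm3 (0.93 in iFIPC, 0.75 in iISC), Ccnb2 in iFIPC (0.95) and Cdc20 in iISC organoids (0.75). Just under the minimum in the main fits were Mcm6 in iISC (0.99) and Cdc6 in iFIPC organoids (0.90). Ccna2 rose by 1.59 ± 0.26 in iFIPC and 1.73 ± 0.26 in iISC organoids (adjusted p = 0.000212 and 7.64e-05). Plk1, not called in either against MEFs, rose by 1.67 and 1.44, and Cdt1 rose by 1.79 and 1.91. The falls in iFIPC organoids were Ccnd3 (-1.59) and Ccne2 (-1.52), and those in iISC organoids were Ccnd1, Ccnd3, Ccne1, Ccne2 and Cdkn2a (-1.28 to -4.39). Cdkn2b rose in both (1.84 and 2.41), and the iFIPC call was lost in 4 of the fits that left out an array (1.26 to 1.67, adjusted p of 0.0768 to 0.119). Both comparisons share the iHep samples.

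Among the organoids, which share scanner and software, few members were called. In iISC against crypt organoids 1 member, Cdkn2a, rose and none fell (2.1% and 1.31% of all genes), and 8 of 42 had an unadjusted p under 0.05. iISC organoids had Cdkn2a above background in 3 of 3 arrays, and it was at least 2.66-fold higher than in crypt organoids (adjusted p = 0.0113). That call was lost with normexp background correction (0.65, adjusted p = 0.381) and with the slide as a term (1.55, adjusted p = 0.531). Normexp was run with an offset of 50 intensity units, which shrinks the changes of dim probes. The slide term rests here on iFIPC array 2, the only other group's array on the iISC slide. With the crypt level at background, neither value gives the size of the change. Rrm2 was lower, at -0.87 ± 0.21 (adjusted p = 0.047), under the minimum of 1. The median member change was -0.28, beside -0.01 over all genes, and 33 of 42 members were below 0. With the slide as a term the median was -0.08 and 25 of 42 were below 0.

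In iFIPC against FI organoids 2 members rose and none fell (5.73% and 5.03% of all genes), and the risers were the neighbours Cdkn2a and Cdkn2b. An unadjusted p under 0.05 was found for 19 of 42 members, a count with no share of all genes beside it. Cdkn2a rose by 3.83 ± 0.58 (adjusted p = 0.00276), with every iFIPC array above every FI array by over 2 log2 units. Cdkn2b rose by 1.74 ± 0.50 (adjusted p = 0.0302), also without overlap. All FI arrays are on 1 slide and the iFIPC arrays on 2 others, and crypt arrays on the FI slide and on 1 of the iFIPC slides allow the slide to enter as a term. Then Cdkn2a changed by 2.92 (adjusted p = 0.174) and Cdkn2b by 0.38 (adjusted p = 0.856). The link between these slides rests on crypt array 1 alone. For Cdkn2a the crypt arrays are at background, and for Cdkn2b crypt array 1 was low (2.24, against 3.29 and 3.59). These 2 values therefore cannot separate the slide from that array. The call of Cdkn2b was also lost without iFIPC array 2 or 3 or FI array 1 or 2 (1.37 to 1.83, adjusted p of 0.0571 to 0.112).

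Smaller differences between iFIPC and FI organoids ran the other way for most members. With no minimum on the size, 13 members passed as lower and 2 as higher, while 15.3% of all genes passed as lower and 10.7% as higher. The 13 were the licensing genes Mcm2, Mcm3, Mcm4, Mcm6, Cdc6 and Cdt1, the mitosis genes Top2a, Aurkb and Bub1b, and Ccnd3, Cdk4, Cdk6 and E2f1. Cdt1 stood at 4.91, 4.55 and 4.62 in iFIPC organoids, against 5.68, 5.80 and 5.54 in FI organoids (-0.98 ± 0.16, adjusted p = 0.00355). Cdc6 stood at -0.17, -0.54 and -0.35 in iFIPC organoids, against 0.51, 0.42 and 0.56 in FI organoids (-0.85 ± 0.13, adjusted p = 0.00317). Neither gene overlapped between the groups. Of all 42 members 36 were below 0 and the median change was -0.36, beside -0.08 over all genes. The median with the slide as a term was -0.35, and then 1 member, Ccnd3, passed as lower, beside 0.397% of all genes. Without iFIPC array 2, iFIPC array 3 or FI array 2 the number lower was 2, 3 and 2, beside 9.37, 9.05 and 6.76% of all genes. Without iFIPC array 1 it was 15, beside 11.3% of all genes. iFIPC array 1 was the highest of its group for 36 of 42 members.

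**Figure D4:**
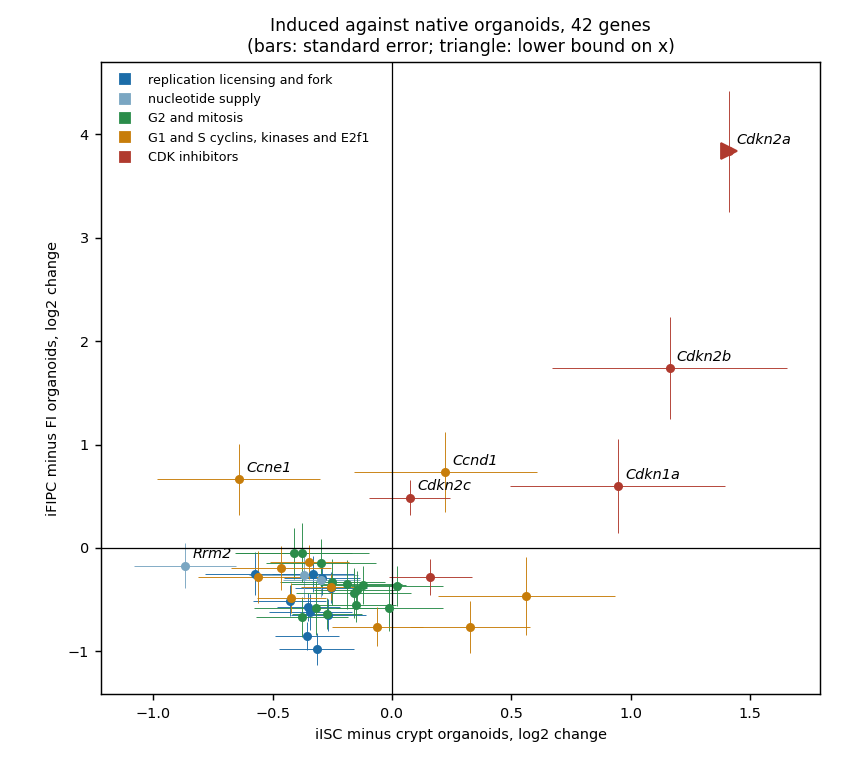
Log2 change of each of the 42 genes in iISC against crypt organoids (horizontal) and in iFIPC against FI organoids (vertical), with standard errors, and with Cdkn2a drawn at its lower bound on the horizontal axis. The 2 comparisons share no arrays. Most genes lie below 0 on both axes and within 1 log2 unit. The cyclin Ccnd1 and the inhibitors Cdkn1a, Cdkn2a, Cdkn2b and Cdkn2c lie above 0 on both.

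The remaining comparisons ask how stage, rather than origin, relates to the members. Both fetal-type groups mix spherical and budding organoids and both adult-type groups are all budding, so stage and form cannot be told apart. In iISC against iFIPC organoids 1 member, Cdkn2a, fell and none rose (4.84% and 3.22% of all genes), by 4.15 log2 (SE 0.58, adjusted p = 0.00256). Within the slide that holds the 3 iISC arrays and iFIPC array 2 the change was -5.38 (adjusted p = 0.136). An unadjusted p under 0.05 was found for 5 of 42 members in this comparison and for 6 of 42 in the next. In crypt against FI organoids 2 members fell and none rose (5.99% and 3.16% of all genes): Cdkn2a was at least 3.3-fold lower (adjusted p = 0.00319), and Cdk6 changed by -1.33 ± 0.25 (adjusted p = 0.00749). With normexp background correction the change of Cdkn2a was -0.59 (adjusted p = 0.315), and with the slide as a term that of Cdk6 was -0.80 (adjusted p = 0.13). The normexp value of Cdkn2a gives no size here either, given the offset and a crypt level at background. The difference between the effect of origin at the adult stage (iISC minus crypt) and at the fetal stage (iFIPC minus FI) was not called for any member in limma, against 5.31% of all genes, and 6 of 42 members had an unadjusted p under 0.05. Cdkn2a gives no size for this difference, since its crypt level is at background.

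Across the 17 samples the replication and mitosis genes varied together. The median pairwise Pearson r was 0.95 among the 10 licensing genes, 0.90 among the 14 G2 and mitosis genes and 0.85 between the sets. Within the 12 organoid samples, after group means were removed, these medians were 0.74, 0.85 and 0.42. The genes least like the rest by median r with the 27 licensing, nucleotide supply and mitosis genes over 17 samples were Cdkn2a (-0.74), Cdkn1a (-0.73), Ccnd3 (-0.72), Ccnd1 (-0.72) and Ccne1 (-0.65). Genes on an array share its RNA and its scaling, so these values are descriptions.

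Arrays of a group on different slides differed for some members. Crypt array 1 shares a slide with the FI arrays, and its median difference from crypt arrays 2 and 3 over the 42 members was -0.16, with Cdkn1a and Cdkn2b more than 1 log2 unit lower. iFIPC array 2 shares a slide with the iISC arrays, and its median difference from iFIPC arrays 1 and 3 was -0.20, with Cdkn2a 1.85 higher. iISC array 1 was the highest of its group for 30 members and iISC array 3 the lowest for 32.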

How the data were processed

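Expression was measured on 18 single-colour Agilent whole-genome mouse arrays. Per the file headers, the deposited intensities came from Agilent Feature Extraction 9.5.1.1 for the MEF and iHep arrays and from a later version for the organoid arrays, background-subtracted and not normalized between arrays. A deposited column of other values marks whether each spot was well above background. A value table that the authors deposited, with quantile-normalized intensities, served as an alternative.

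Control spots and outlier-flagged spots were left out, spots of a probe were averaged, and log2 signals were set relative to each array's 75th percentile. Probes were named through a RefSeq gene table (24806 by accession, 6035 by symbol, 1806 by synonym, 8462 unnamed), which gave 19701 genes. limma 3.58.1 in R 4.3.3 fitted 1 mean per group with eBayes, two-sided, over all 17 samples for comparisons with MEFs or iHep cells and over the 12 organoid samples otherwise, and adjusted p-values by Benjamini-Hochberg over all genes tested. A gene entered a test when a compared group had its probe well above background on all of its arrays. Counts at an unadjusted p under 0.05 are given for the members without the share of all genes. They are therefore not read as an excess or lack of members. The procedure was tested on simulated data. The number of arrays limits the precision. The genes named are the 42 members, and from each other list genes among the 3 largest called rises and falls, of which 1 is not reported here. Members and lists were chosen with earlier results of these data known.

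Same-numbered samples did not deviate together. Of 45 same-numbered pairs, 5 had a correlation of their deviations from the group means over 0.1 (range -0.42 to 0.36), so replicate numbers were not used to pair samples.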

Additional observations from a re-analysis of the deposited data

How the results depend on the processing

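Each comparison was recomputed with other normalization, background, filter, probe, slide and sample choices. Of 148 called member changes, 97 stayed called under each alternative run, and of 2281 alternative values 2136 stayed called, 145 lost the call and none changed sign. The 2136 include the 148 values of the run with no minimum change, which could not lose a call. The authors' values were quantile-normalized too, so those 2 runs were near repeats (134 stayed called in each). With the slide as a fixed term, 7 calls stayed and 4 were lost. For organoids against MEFs or iHep cells no such run was made. The number of members called in iHep cells against MEFs, 5, was 3 with normexp, 3 with only the compared groups in the fit and 0 within 1 slide (5 at an unadjusted p under 0.05 in limma). In iISC against crypt organoids it was 1, and 0 with normexp or with the slide as a fixed term (8 and 1 members at an unadjusted p under 0.05). In iFIPC against FI organoids it was 2, and 1 with only the compared groups, with the slide as a fixed term (Ccnd3 alone) or as a random block. In iISC against iFIPC organoids it was 0 within 1 slide (2 at an unadjusted p under 0.05), and in crypt against FI organoids 1 with normexp and 1 within 1 slide. With the mean of all probes 1 member, Cdk6, was called for the difference in origin effect between stages. With quantile normalization, 15 members rose in iFIPC, 14 in iISC, 22 in FI and 17 in crypt organoids against MEFs. In the main fits these counts were 15, 16, 22 and 23. With no minimum change the counts were 13 in iHep against MEFs, 26 in iFIPC against MEFs, 30 and 36 in iFIPC and iISC against iHep, 2 in iISC against crypt, 15 in iFIPC against FI and 4 in crypt against FI. The causes of the other shifts were not tested; fewer arrays in a fit also leave fewer degrees of freedom.

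Leaving out each sample in turn gave 14 to 19 members called in iFIPC, 19 to 22 in iISC, 24 to 29 in FI, 25 to 27 in crypt and 3 to 5 in iHep against MEFs, with 3 without MEF array 1. Against iHep it gave 16 to 20 in iFIPC and 19 to 27 in iISC. It gave 1 to 2 in iISC against crypt (Rrm2 joined without iISC array 1), 1 to 3 in iFIPC against FI (1 without iFIPC array 2 or 3 or FI array 2), 1 in iISC against iFIPC, 2 to 3 in crypt against FI, and 0 to 2 for the difference between stages (Ccne1 and Cdk6 without crypt array 1). With the replicate number as a block, the members called against MEFs were 5 in iHep, 19 in iFIPC, 22 in iISC, 28 in FI and 28 in crypt, and Cdk6 in crypt organoids (0.97) lost its call. The number of members lower in iFIPC against FI organoids with no minimum change, examined under all settings after seeing the data, lay between 1 and 15. The share of all genes lower lay between 0.397 and 16.1% over the same settings.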
